A study of Mus musculus with 4 samples.

Results

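Binding motifs of the early growth response factors Egr1, Egr2, Egr3 and Egr4 and of the related factor Wt1 were examined in chromatin accessibility data from mouse splenic regulatory T cells (Tregs). They were all entries of the deposited motif table that carry 1 of these 5 factor symbols, which gave 7 of the 1346 entries in the table. Egr1 and Egr3 had 2 entries each, and Egr2, Egr4 and Wt1 had 1 each. Accessibility was measured by ATAC-seq, in which a transposase inserts adapters into the DNA that it can reach in nuclei. The cells were CD4+ FOXP3+ Tregs from the spleens of FOXP3-IRES-GFP mice (strain B6.Cg-Foxp3tm2Tch/J, genotype WT), in which GFP is expressed together with Foxp3, the factor that defines Tregs. All mice carried this reporter allele and were treated for 14 days. There were 2 samples from mice given vehicle and 2 from mice given venetoclax at 50 mg/kg, and the age of the mice is not given in the sources used here. Venetoclax blocks BCL-2, a protein that protects cells from apoptosis. The samples are called biological replicates, without a statement of the animals behind each, so a p-value covers the spread among these 4 samples only, which may be technical. No expression value was used, so the identity of the cells was not checked against marker genes.

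Egr factors are zinc finger transcription factors that bind GC-rich sites through a tandem of C2H2 fingers. In T cells their genes are induced within a short time of T cell receptor engagement, downstream of ERK signalling and, for Egr2 and Egr3, of NFAT. Egr2 and Egr3 are known as factors that restrain T cell activation and take part in anergy. Wt1, the Wilms tumour factor, is a developmental regulator of kidney and gonad with related zinc fingers that bind sites overlapping those of Egr1.

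The authors deposited chromVAR deviation scores, 1 per motif and sample. The score compares peaks that hold a motif with the level expected from the average over the samples scored together, corrected by matched background peaks. It is above 0 where these peaks were more open in a sample than expected, and below 0 where they were less open. Which samples entered the average is not stated in the sources used here. A score has no unit and belongs to a sequence pattern, not to the amount or binding of the named factor. In a bulk sample a change in the share of some cells and a change within each cell cannot be told apart. Entries are named here by symbol and by the LINE number in the table. In entry names of this form the letter D marks a motif measured directly for the factor and I a motif inferred from a related protein. The Egr1, Egr2 and Egr3 entries were direct, while Egr4 and Wt1 were inferred. No 2 of the 7 entries had the same scores, although the 1346 entries of the table held only 976 distinct sets of scores. The SD of the scores over all motifs was similar in the 4 samples, from 0.893 to 0.971, and the median over all motifs was from -0.28 in venetoclax replicate 2 to 0.18 in vehicle replicate 1. The depth of the libraries is unknown, since the table holds no read counts.

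The question was whether accessibility at these motifs differed between venetoclax and vehicle. The Wt1 motif had a difference (venetoclax minus vehicle) of -2.77 score units, and those of the 6 Egr motifs lay between -0.61 and -0.0021. None of the 7 passed the threshold of 0.05 on the adjusted p in limma, a linear model that shares the spread between samples over motifs. Among all motifs 0 of 1346 passed (0%). The unadjusted p was under 0.05 for 246 motifs (18.3%), and 160 of these (11.9% of all motifs) were lower with venetoclax. An ordinary linear model per motif also called 0. Of the 7 entries, 1, the Wt1 motif, had an unadjusted p under 0.05. All 7 differences were negative, as were 61.3% of those of all motifs. The groups did not overlap for 3 of the 7 entries (Wt1, Egr4 and Egr3 LINE431), each lower with venetoclax, a pattern found for 31.1% of all motifs.

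The Wt1 motif (LINE2218, gene ENSMUSG00000016458) scored 1.20 and 2.64 in vehicle replicates 1 and 2, and 0.78 and -2.49 in venetoclax replicates 1 and 2. Both venetoclax samples lay below both vehicle samples, but venetoclax replicate 1 was closer to vehicle replicate 1 than to the other venetoclax sample. Read against all motifs of the same sample, the Wt1 motif stood above 88.6% and 99.6% of motifs in the vehicle samples, above 78.1% in venetoclax replicate 1 and above 0.966% in venetoclax replicate 2. It was thus near the top of the table in vehicle replicate 2 and near the bottom in venetoclax replicate 2, samples not known to be paired. The replicate 1 samples of the groups lay closer together. The mean was 1.92 ± 1.01 in the vehicle group and -0.85 ± 2.31 in the venetoclax group (SD, n = 2 each). Their difference was -2.77 (SE 0.876, 95% interval from -4.59 to -0.95, limma unadjusted p = 0.00468, limma adjusted p = 0.15). By size of the negative difference it was number 10 of the 1346 motifs.

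The call for Wt1 turned on the variance model, and the size of its difference on which samples were used. With a variance that depended on the mean score and was robust to outliers, limma gave an adjusted p of 0.0408 for Wt1. That fit called 74 of the 1346 motifs. Without venetoclax replicate 1 the difference was -4.40, and without venetoclax replicate 2 it was -1.14. It was -3.49 without vehicle replicate 1 and -2.06 without vehicle replicate 2. Each of these fits leaves 1 sample in a group, so only the difference is given. With no sharing of the spread between motifs, the SE of Wt1 was 1.78 in place of 0.876 and its adjusted p in the linear model was 0.639. With the replicate number as a block in limma its SE was 1.22, its unadjusted p 0.0707 and its adjusted p 0.546. Over the alternatives that kept all 4 samples its adjusted p ranged from 0.0408 to 0.639. Its difference was negative in every alternative.

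**Figure D1:**
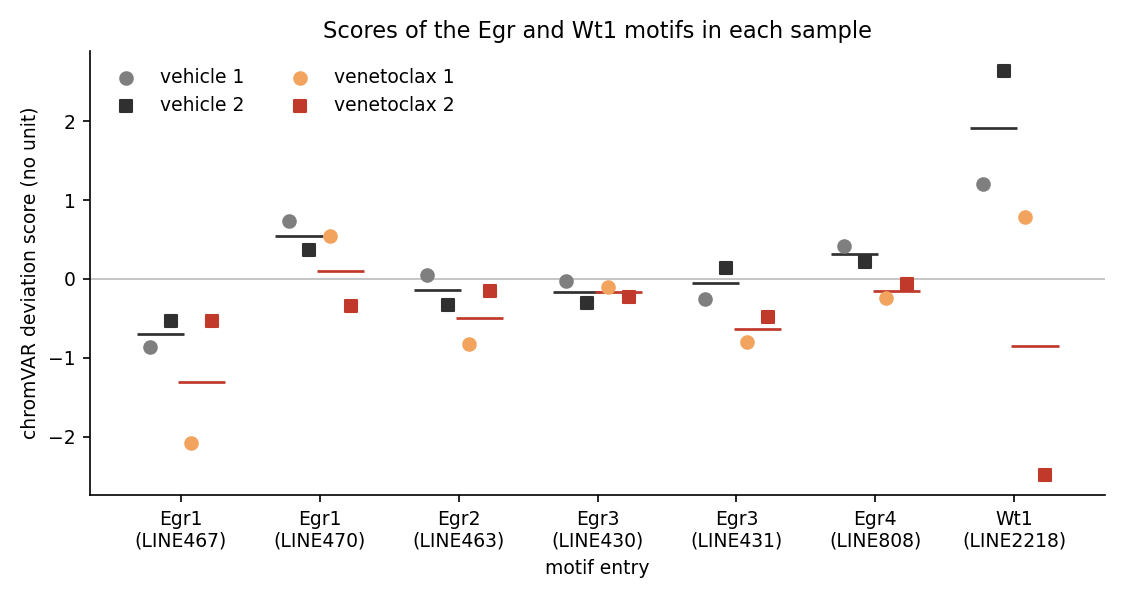
Scores of the 7 motif entries in each sample. The vertical axis is the chromVAR deviation score, which has no unit, each symbol is 1 sample, and the horizontal lines are the group means of 2 samples. The Wt1 scores reach from -2.49 to 2.64, while all Egr scores but 1 lie between -1 and 1.

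Egr1, an immediate early factor of the family, had entries that lay at different levels. The entry LINE467 (gene ENSMUSG00000038418) scored -0.86 and -0.53 in the vehicle samples and -2.08 and -0.53 in the venetoclax samples. Only venetoclax replicate 1 stood apart, and venetoclax replicate 2 had nearly the score of vehicle replicate 2, so the groups overlapped. The difference was -0.61 (SE 0.724, 95% interval from -2.11 to 0.90, limma adjusted p = 0.701), and it was 0.17 without venetoclax replicate 1. In that replicate the entry stood above only 0.594% of all motifs, against 14.6% to 38.6% in the other 3 samples.

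The other Egr1 entry, LINE470, scored 0.73 and 0.37 under vehicle and 0.54 and -0.35 under venetoclax. Here venetoclax replicate 2 was the low sample, and venetoclax replicate 1 lay between the vehicle samples. The difference was -0.45 (SE 0.698, 95% interval from -1.90 to 1.00, limma adjusted p = 0.771). It was -0.90 without venetoclax replicate 1 and -0.011 without venetoclax replicate 2. The entries of Egr1 thus had differences of like size that came from different venetoclax samples.

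The Egr1 entries also differed from each other in every sample. The root mean square difference between their scores over the 4 samples was 1.60, with the largest gap, 2.62, in venetoclax replicate 1. For all 2886 pairs of distinct entries that share a symbol in the table the median of this distance was 0.96, and 88.0% of these pairs were closer than the pair of Egr1. The pair of Egr3 was among the closer ones, at 0.446, with 11.0% of pairs closer.

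Egr2, a negative regulator of T cell activation, had scores of 0.048 and -0.34 under vehicle and of -0.83 and -0.16 under venetoclax (LINE463, gene ENSMUSG00000037868). The lowest score was in venetoclax replicate 1, and venetoclax replicate 2 lay between the vehicle samples. The difference was -0.35 (SE 0.692, 95% interval from -1.79 to 1.09, limma adjusted p = 0.82). It was -0.69 without venetoclax replicate 2 and -0.012 without venetoclax replicate 1.

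Egr3, which acts with Egr2 in restraining T cells, had an entry with nearly equal scores in all samples. LINE430 (gene ENSMUSG00000033730) had scores of -0.027 and -0.30 under vehicle and of -0.097 and -0.23 under venetoclax. Both venetoclax samples lay between the vehicle samples, and the difference was -0.0021 (SE 0.684, 95% interval from -1.42 to 1.42). Its absolute difference was the smallest of the 1346 motifs. The sign of so small a value was not stable, and it was 0.26 once the median of each sample had been set to 0.

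The other Egr3 entry, LINE431, had scores of -0.25 and 0.14 under vehicle and of -0.79 and -0.49 under venetoclax. Both venetoclax samples were below both vehicle samples. The difference was -0.58 (SE 0.686, 95% interval from -2.01 to 0.84, limma adjusted p = 0.696). Leaving out 1 sample gave values between -0.78 and -0.39.

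Egr4, the remaining member of the family, had scores of 0.41 and 0.22 under vehicle and of -0.24 and -0.069 under venetoclax (LINE808, gene ENSMUSG00000071341). The vehicle scores were above 0 and the venetoclax scores below it, without overlap. The difference was -0.47 (SE 0.683, 95% interval from -1.89 to 0.95, limma adjusted p = 0.755), and leaving out 1 sample gave values between -0.56 and -0.37. For Egr4 the SD between replicates, 0.137 with vehicle and 0.118 with venetoclax, was smaller than the difference, but the SE from the spread shared over motifs was larger than it.

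**Figure D2:**
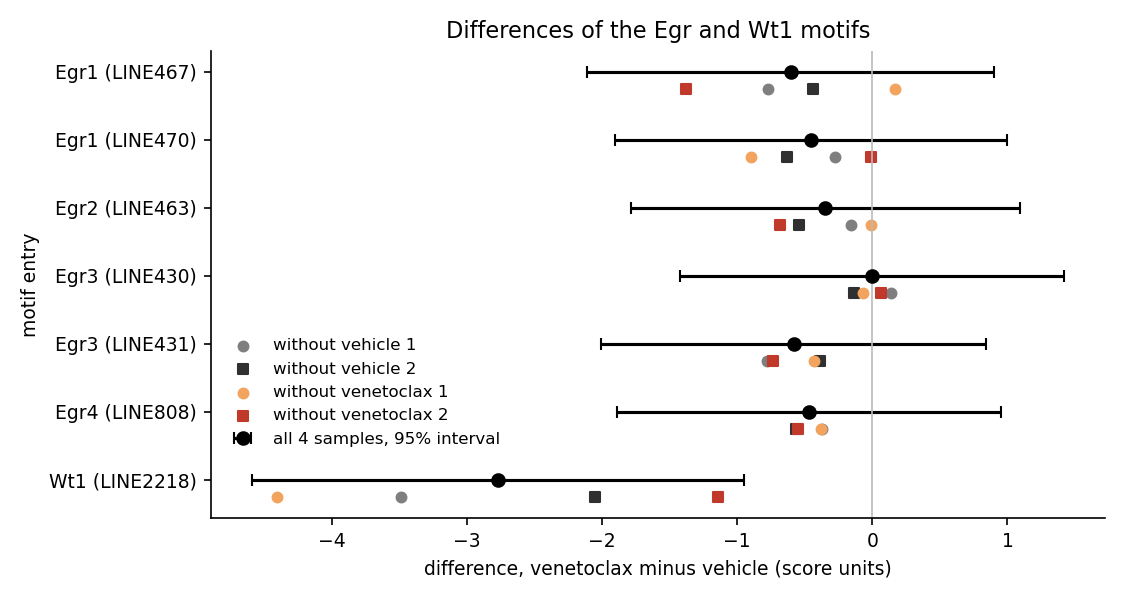
Differences between venetoclax and vehicle for the 7 motif entries, in score units. Black points with bars are the differences over all 4 samples with their limma 95% intervals, and coloured points below them are the differences with 1 sample left out. The interval of Wt1 runs from -4.59 to -0.95, the intervals of the 6 Egr motifs include 0, and the Wt1 points reach from -4.40 without venetoclax replicate 1 to -1.14 without venetoclax replicate 2.

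The median difference of the 7 entries was -0.47 beside a median of -0.29 over all motifs, and the median of the 6 Egr entries alone was -0.46. Setting the median of each sample to 0 moved the median of all motifs to -0.028 and the share of negative differences from 61.3% to 50.4%. Relative to that centre the median of the 7 entries was -0.21, with 6 of 7 negative. The Wt1 difference was -2.51 after centring, and those of the Egr entries ranged from -0.34 for Egr1 LINE467 to 0.26 for Egr3 LINE430. The half-width of the 95% interval had a median of 1.47 score units over all motifs, which is more than the size of any Egr difference.

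The Egr motifs differed in how far their scores ranged over the samples. The range from the lowest to the highest of the 4 scores was under 1 score unit for 4 of the 7 entries (Egr2, Egr4 and both of Egr3), against 20.4% of all motifs. The highest absolute score was under 1 for 5 of the 7 entries, against 37.1% of all motifs. The range was 0.273 for Egr3 LINE430, and 0.817% of motifs had a smaller one. It was 0.647 for Egr4, 0.877 for Egr2, 0.934 for Egr3 LINE431, 1.08 for Egr1 LINE470 and 1.55 for Egr1 LINE467, beside a median of 1.61 over all motifs. The Egr1 LINE467 motif thus lay near the middle of the table, with a smaller range for 46.1% of motifs. The Wt1 range was 5.12, and 99.5% of motifs had a smaller one.

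**Figure D3:**
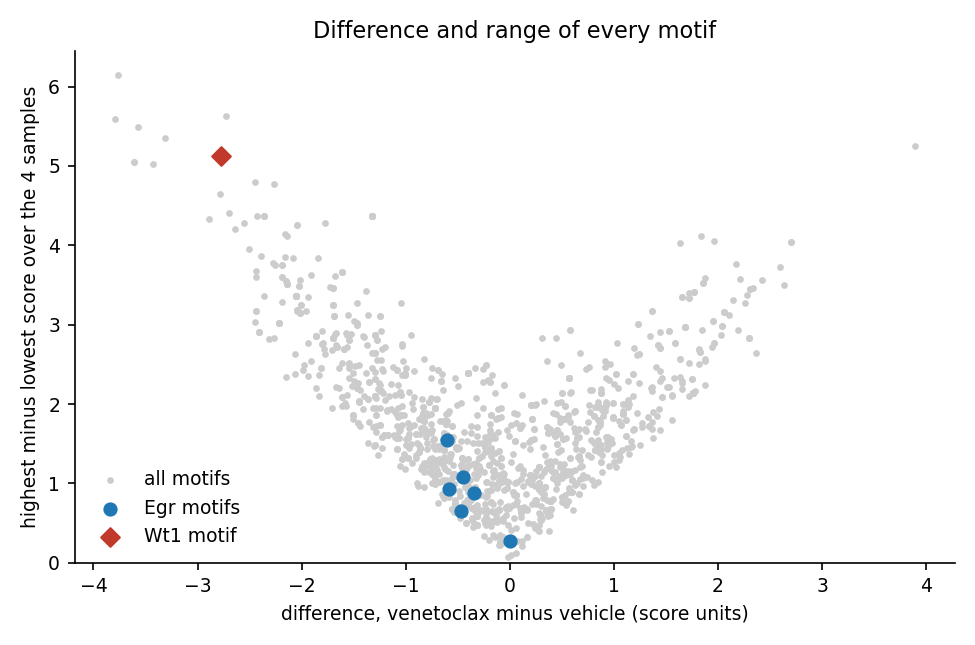
Each grey point is 1 of the 1346 motifs, with the difference between venetoclax and vehicle in score units on the horizontal axis and the range of its 4 scores on the vertical axis. A large difference needs a large range, which gives the V shape. The Wt1 motif lies at the upper left, at -2.77 and 5.12, and the 6 Egr motifs have ranges from 0.273 to 1.55, all below the median of 1.61 over all motifs.

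Within each sample the Wt1 motif was set against the median of the 6 Egr motifs. The Wt1 score was 1.19 and 2.72 above the Egr median in the vehicle samples, 1.29 above it in venetoclax replicate 1 and at a gap of -2.20 in venetoclax replicate 2. Venetoclax replicate 1 lay between the vehicle samples. The mean gap was 1.95 ± 1.08 in the vehicle group and -0.45 ± 2.47 in the venetoclax group (SD, n = 2 each), and these differed by -2.40. A two-sided exact permutation test over the 4 samples gave p = 0.667, and the smallest p that 2 samples against 2 allow is 0.333. The test could not pass a threshold of 0.05 at this number of samples, so it does not say whether the Wt1 and Egr motifs responded differently.

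The motifs most like each entry were taken as those of other factors with the smallest root mean square difference of scores over the 4 samples. Nearest to Wt1 were Zscan10, a zinc finger protein of pluripotent cells, at 0.186, Irf5, an interferon regulatory factor, at 0.388, and Hic2, a zinc finger repressor, at 0.477. The Zscan10 motif scored 1.06, 2.61, 0.96 and -2.19 in the order vehicle 1, vehicle 2, venetoclax 1, venetoclax 2. The Irf5 motif scored 0.52, 2.88, 0.70 and -2.75, and the Hic2 motif 1.84, 1.97, 0.78 and -2.24. Each of these 3 was high in vehicle replicate 2 and lowest in venetoclax replicate 2, as Wt1 was. Of 969 other sets of scores, 6 came within 0.5 of Wt1. The Egr entries had more such neighbours, from 20 for Egr1 LINE467 to 181 for Egr3 LINE430. The next lowest count was 118, for Egr2, so the 3 motifs named below for most Egr entries came from many this close. With 4 samples this likeness is a description only.

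**Figure D4:**
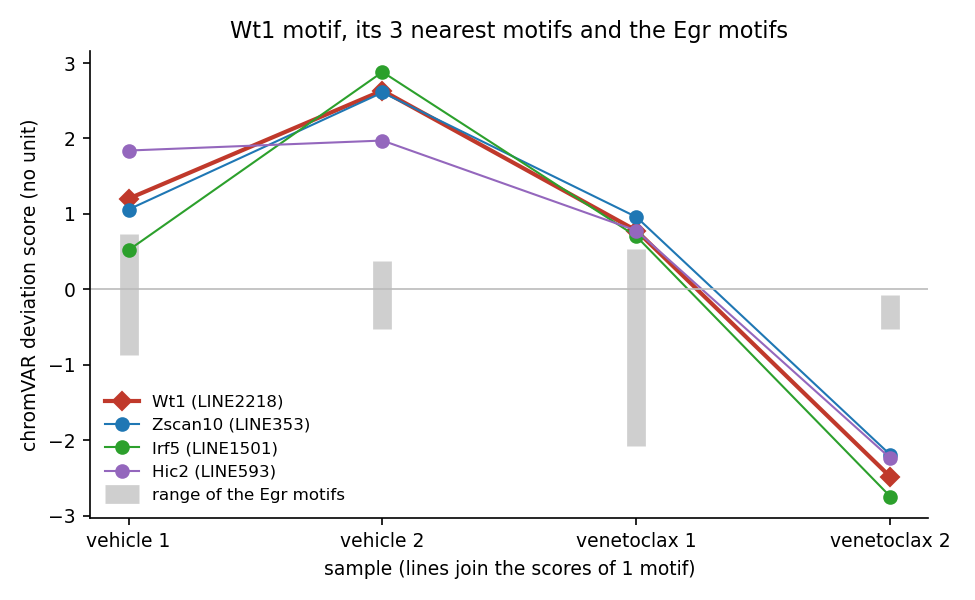
Scores of the Wt1 motif and of the 3 motifs nearest to it in each sample, with grey bars for the range of the 6 Egr motifs. The vertical axis is the chromVAR deviation score, which has no unit, and lines join the scores of 1 motif. The 4 lines lie between -2.75 and -2.19 in venetoclax replicate 2, below the Egr range there.

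Nearest to Egr1 LINE470 were the motifs of Yy1, a ubiquitous zinc finger factor (0.0963), E2f3, a cell cycle factor (0.102), and Rreb1, a zinc finger factor of Ras signalling (0.148). Nearest to Egr1 LINE467 were Gfi1b (0.234), Pax8 with Pax1 (0.236) and Nkx25 (0.247). For Egr2 they were Lhx2 (0.169), E2f6 (0.178) and Ets2 (0.194). For Egr3 LINE431 they were the motif shared by Klf6, Klf3 and Klf2 (0.127), Etv2 (0.137) and Zfp238 (0.141). For Egr3 LINE430 they were Ikzf4 (0.126), an entry that carries a gene ID in place of a symbol (0.143) and Sox9 (0.152). For Egr4 they were the motif shared by Hivep2 and Hivep3 (0.0602), Irx6 (0.0851) and the motif shared by Nfatc3 and Nfatc4 (0.101).

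Other zinc fingers with GC-rich sites gave no motif past the threshold in limma. Of 17 motifs of Sp factors, which bind GC boxes of many promoters, 14 had a negative and 3 a positive difference, with a median of -0.77. The groups did not overlap for 8 of the Sp motifs, all lower with venetoclax, beside 31.1% of all motifs. Their median score was 0.54 and 0.75 in the vehicle samples, 0.43 in venetoclax replicate 1 and -0.60 in venetoclax replicate 2. Venetoclax replicate 2 was also the low sample for Wt1, and for the median of all motifs, which was -0.28 there. The Sp motifs furthest from 0 were Sp1 LINE281 at -1.52 (SE 0.715) and Sp3 LINE1062 at 0.86 (SE 0.71). Of 37 Klf motifs, which held 18 distinct sets of scores, 28 were negative, with a median of -0.34, from Klf6 LINE746 at -1.70 to Klf9 LINE432 at 1.77. Of 37 motifs of further zinc fingers with GC-rich sites (such as the Zic, Gli and Zbtb7 factors), 26 were negative, with a median of -0.51, from Hic2 at -2.64 to Patz1 at 0.85. The groups did not overlap for 15 Klf motifs lower with venetoclax and 6 higher. For the further zinc fingers these counts were 12 lower and 4 higher. Among all motifs the shares were 31.1% lower and 17.2% higher. With each distinct set of scores counted once, the median was -0.75 for Sp, -0.53 for Klf and -0.32 for these further factors. Over all motifs it was then -0.23. An unadjusted p under 0.05 with a negative difference was found for 1 Sp motif, 6 Klf motifs and 5 motifs of the further zinc fingers, where 11.9% of all motifs had one. With a positive difference it was found for 3 Klf motifs, beside 6.39% of all motifs. The 6 negative Klf motifs held 2 distinct sets of scores, and the 3 positive ones (Klf9, Klf13 and Klf16) held 1.

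Motifs of factors that induce the Egr genes downstream of the T cell receptor had mostly positive differences. Whether this was particular to these factors was not tested. Entries outside the list also had positive differences, as Fli1 LINE1018 at 1.05 and Gabpa LINE1011 at 1.08. Of all motifs 521 were positive and 825 negative. The list held Srf and its partners Elk1, Elk3 and Elk4, which drive immediate early genes, with Creb1 and Mef2d. Its 10 motifs were entries of 6 symbols, with several of Mef2d. The Mef2d entries LINE6399, LINE6402 and LINE6418 had the same scores as entries of Mef2b. Of the 10 motifs 9 were positive, beside 38.7% of all motifs, with a median of 0.91. An unadjusted p under 0.05 was found for 2 of the 10, both positive, beside 6.39% of all motifs with a positive difference at that p and 18.3% in either direction. The groups did not overlap for 5 of them, each higher with venetoclax, beside 17.2% of all motifs. The immediate early list below held 9 of 18 such motifs. The list median was -0.55 and -0.37 in the vehicle samples and 0.26 and 0.62 in the venetoclax samples. The Srf motif had the largest positive difference, 2.14 (SE 0.745, limma adjusted p = 0.174), and Mef2d LINE6416 had the only negative one, -1.25 (SE 0.793). No motif of the list passed the threshold.

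NFAT motifs, of the calcium-dependent factors that act with the T cell receptor, went both ways. Of 9 motifs 6 were negative, beside 61.3% of all motifs, with a median of -0.16. Both ends of the list were entries of Nfatc4, at -1.07 (LINE7047) and 1.66 (LINE7048). The groups did not overlap for 4 NFAT motifs lower with venetoclax and 1 higher, beside 31.1% and 17.2% of all motifs. Of 18 motifs of other immediate early and activation factors, 11 were positive, beside 38.7% of all motifs, and 7 negative. Their median was 0.53, from Irf4 at -2.16 to Fosb at 2.59. The groups did not overlap for 9 of the 18, higher with venetoclax, beside 17.2% of all motifs. For 4 they did not overlap and were lower, beside 31.1%. An unadjusted p under 0.05 in limma was found for 3 positive and 2 negative ones, beside 6.39% and 11.9% of all motifs. None of these motifs passed the threshold in limma, where the smallest adjusted p was 0.231 for NFAT and 0.15 for the immediate early list. Over the 128 motifs of the 6 related lists together 0 passed and 23 had an unadjusted p under 0.05, which is 18.0% beside 18.3% of all motifs. With the mean-dependent, robust variance limma called 8 of these 128 motifs, beside 74 of all 1346 motifs.

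**Figure D5:**
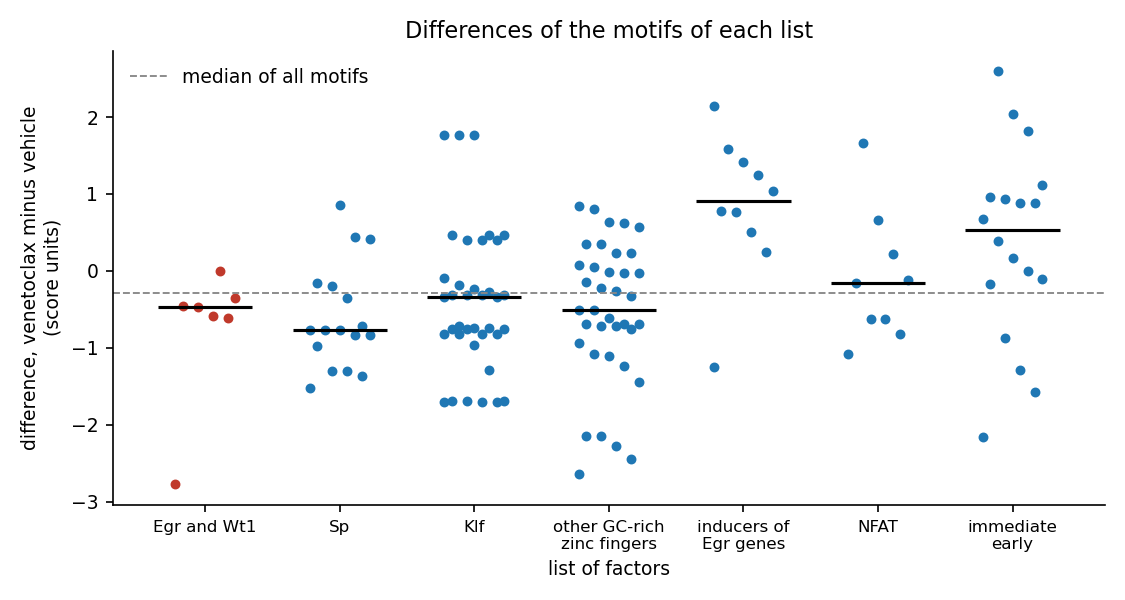
Differences between venetoclax and vehicle, in score units, of the motifs of each list of factors. Each point is 1 motif, black lines are list medians, and the dashed line is the median of all motifs, -0.29. The Egr motifs lie close to the dashed line with Wt1 apart at -2.77, and the inducers of Egr genes have a median of 0.91.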

How the data were processed

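ATAC-seq libraries of splenic Tregs were made from 2 vehicle and 2 venetoclax samples by transposition of nuclei, per the labels' protocols. Per the submitters' processing notes, Bowtie2, Picard, MACS2 and build mm10 were used, with no role or version. The authors deposited chromVAR deviation scores of each motif in each sample, as the name of the table says. Its peaks, background peaks, motif source and kind of score (z-score or deviation) are not stated in the sources used here. The table has 12 sample columns, and 8 that match no labelled sample stayed out. The differences in the authors' deposited table were the same as those computed here to within 1e-09.

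The deposited scores entered limma 3.58.1 untransformed in R 4.3.3, two-sided, over all 1346 motifs with Benjamini-Hochberg adjustment. The test had 21.0 degrees of freedom, 2 of them from the samples of the motif itself. The step was tested on simulated scores with independent noise per motif and changes larger than any Egr difference. The simulation thus does not cover differences as small as those of the Egr motifs, or entries that share scores. All 5 member symbols matched RefSeq gene names (GRCm38.p6). All members were named, with the 3 nearest motifs of each and the extreme motif of each sign per related list. No motif sequence or peak coordinate was used. The members and lists were chosen with earlier results of these data known. The alternatives tried were a replicate block, leaving out 1 sample, 3 scalings, 2 variance models, 1 entry per distinct set of scores and a minimum absolute score of 1.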

Additional observations from a re-analysis of the deposited data

How the results depend on the processing

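Of 86 values of single Egr and Wt1 motifs under the alternatives, 78 kept their sign and their side of the threshold, 6 changed sign and 2 passed the threshold, both of Wt1. With a sample left out Egr3 LINE430 ranged from -0.14 to 0.13 (0.13 without vehicle replicate 1, 0.067 without venetoclax replicate 2). It was 0.26 after centring, 0.27 after centring and division by the SD and 0.27 after quantile normalization. Egr1 LINE467 ranged from -1.38 to 0.17 with a sample left out, the latter without venetoclax replicate 1. The median of the 7 entries was -0.21 after centring, -0.22 after centring and division by the SD and -0.22 after quantile normalization, and with a sample left out it ranged from -0.69 to -0.37. The count of all motifs past the threshold ranged from 0 to 337 with a sample left out, was 74 with the trended, robust variance and 8 among motifs with an absolute score of at least 1. Of the 7 entries 0 to 1 passed with a sample left out and 1, Wt1, with the trended, robust variance. The related lists had 0 to 32 calls with a sample left out and 8 with the trended, robust variance. Without venetoclax replicate 1 the calls were 25% of the motifs of the related lists, beside 25% of all motifs. That fit leaves 1 sample in a group, so no conclusion is drawn from its calls, that of Wt1 included. The cause of these changes in the counts was not tested. The gap between Wt1 and the Egr median ranged from -4.15 to -0.66 with a sample left out, alternatives that were chosen after seeing the data. The filter on low scores left 2 of the 7 entries, so no median was taken.

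The shared replicate numbers were not taken as pairs, since the labels do not say that a number pairs samples. The deviations of same-numbered samples correlated at -0.268 over motifs. This value rests on 4 samples and cannot show whether they were paired. With the replicate block limma called 0 motifs, and 100 had an unadjusted p under 0.05 in place of 246. With the numbers crossed, an alternative added after seeing the data, limma called 0 and 258 had an unadjusted p under 0.05. Depth is unknown, and 2 samples a group set the precision.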
